A study of Mus musculus with 8 samples.

Results

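The nuclear genes for subunits of the mitochondrial respiratory chain were taken by name from the array annotation, and 80 of the 34797 genes named on the array belonged to them. The names chosen were those of Nduf subunits (complex I, 36 genes), Sdha to Sdhd (complex II, 4 genes), Uqcr subunits (complex III, 8 genes), Cox5 to Cox8 subunits (complex IV, 15 genes, without Cox4i1 and Cox4i2, whose names the pattern leaves out) and Atp5 genes (complex V, 17 genes). Of the Atp5 genes, Atp5s and Atp5sl bear the name but are not counted as subunits in current annotation. The 80 genes were represented by 121 probes, and each gene is described by its brightest tested probe. The tissue was medial prefrontal cortex (mPFC) of adult male C3H/HeN mice, an inbred strain, and each animal had its own single-colour Agilent array. From postnatal day 2 to 14, 4 of the mice had undergone maternal separation (MS) combined with unpredictable stress of the dam, whereas 4 control mice stayed with theirs. All mice were weaned at postnatal day 21. The study describes operant testing for palatable food, and then food deprivation of the mice before the tissue was collected. The comparison asked whether MS left a difference in the expression of these genes in the mPFC. Animals are named by group and label number, such as control 8.4.

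Complexes I to IV pass electrons from NADH and succinate to oxygen and pump protons across the inner mitochondrial membrane, with no pumping by complex II. Complex V, the ATP synthase, uses the proton gradient to make ATP. Neurons depend heavily on this pathway to restore their ion gradients after electrical activity. Most subunits are encoded in the nucleus and are assembled with a small set encoded by mitochondrial DNA.

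Promoters of these genes are shown first because some of them carry motifs of the transcription factors best known for control of respiratory chain genes. RefSeq promoters of GRCm38.p6, from 250 bases before to 50 bases after the annotated start, were matched to 68 of the 80 genes, and these had 74 promoters. Exact matches on either strand were sought for 4 motifs of 8 bases. Those were GCGCATGC (nuclear respiratory factor 1, NRF1), CCGGAAGT (ETS factors, such as GABP), AAGATGGC (YY1) and CAAGGTCA (estrogen-related receptors). The NRF1 motif is nearly its own reverse complement, so GCGCATGCGC holds overlapping matches on both strands. For each complex, the 170 bases before the start are given for the gene with most matches there, with the first by name where genes tied. Capitals mark motif matches.
Ndufa11 promoter, chr17:56717592-56717761, plus strand: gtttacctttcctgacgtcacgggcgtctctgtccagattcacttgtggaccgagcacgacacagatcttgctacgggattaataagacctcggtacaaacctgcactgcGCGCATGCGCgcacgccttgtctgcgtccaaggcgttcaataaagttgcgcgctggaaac
Sdhb promoter, chr4:140961101-140961270, plus strand: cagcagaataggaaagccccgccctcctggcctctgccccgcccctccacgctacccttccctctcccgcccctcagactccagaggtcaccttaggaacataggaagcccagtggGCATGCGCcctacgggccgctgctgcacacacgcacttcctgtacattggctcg
Uqcr11 promoter, chr10:80406822-80406991, minus strand: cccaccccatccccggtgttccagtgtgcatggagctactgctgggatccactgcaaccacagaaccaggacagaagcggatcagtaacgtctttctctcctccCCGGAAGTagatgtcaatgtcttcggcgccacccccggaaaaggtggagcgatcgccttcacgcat
Cox6a1 promoter, chr5:115348959-115349128, minus strand: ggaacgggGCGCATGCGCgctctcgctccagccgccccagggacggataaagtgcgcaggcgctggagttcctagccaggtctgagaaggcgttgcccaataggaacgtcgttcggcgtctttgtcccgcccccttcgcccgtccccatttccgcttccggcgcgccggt
Atp5g2 promoter, chr15:102671048-102671217, minus strand: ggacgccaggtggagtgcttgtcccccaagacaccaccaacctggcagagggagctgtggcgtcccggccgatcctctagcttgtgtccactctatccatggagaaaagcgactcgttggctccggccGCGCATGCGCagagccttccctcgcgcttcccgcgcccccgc
These examples hold an NRF1 match in 4 genes and an ETS match in Uqcr11. They were picked for their matches and do not stand for the family, as each motif was found in at most 11 of the 68 genes. Uqcr11 also holds an NRF1 match that crosses its start and is therefore not within the bases shown. The genes that gave the largest and smallest changes are described further on, and Ndufa11, Sdhb, Uqcr11, Cox6a1 and Atp5g2 are all among the genes named there.

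Among the 74 promoters, the NRF1 motif was found in 10 (13.5%), against 2.71% of all 32851 promoters of the same length. The YY1 motif was found in 12 (16.2%), against 2.75% of all. The shares were 6.76% against 3.89% for the ETS motif and 5.41% against 1.56% for that of estrogen-related receptors. The 10 genes with an NRF1 match were Ndufa6, Ndufa8, Ndufa11, Sdhb, Uqcr11, Uqcrc1, Cox6a1, Atp5g2, Atp5k and Atp5l, so each of the 5 complexes had at least 1. The YY1 matches lay in 11 genes of only complexes I (7 genes) and V (4 genes). Only the Atp5j match and the Atp5sl match in 1 of its promoters lay wholly before the annotated start. Another Atp5sl promoter overlaps that one and holds the same site, there after the start, so this site is counted in both. The Atp5f1 match crossed the start, and the rest began between bases 23 and 39 after it. The median log2 fold change between MS and control was 0.062 over the 10 genes with an NRF1 match and 0.039 over the 58 without. It was 0.033 over the 11 genes with a YY1 match and 0.043 over the 57 without. These shares and medians describe the sequences and were not tested.

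**Figure D1:**
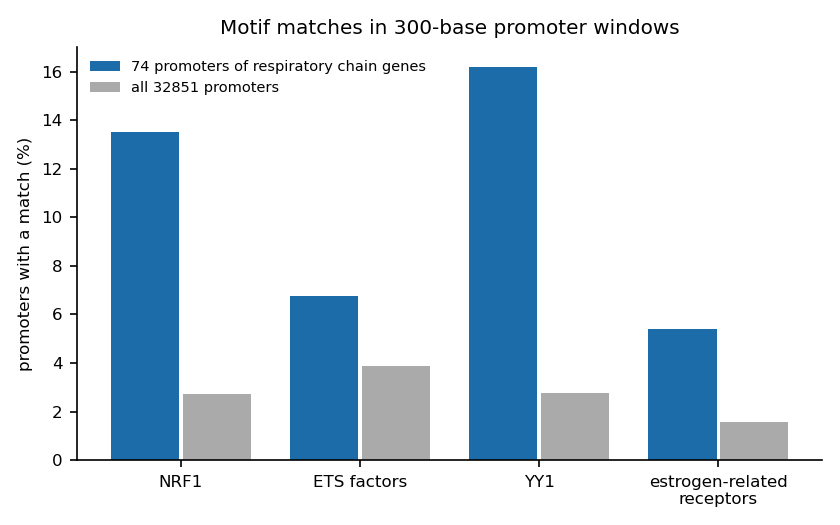
Share of promoters (vertical axis, %) with at least 1 exact match to each of 4 motifs, for 74 promoters of respiratory chain genes and for all 32851 promoters. The shares were 13.5% against 2.71% for NRF1 and 16.2% against 2.75% for YY1.

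No respiratory chain gene passed the test between MS and control mPFC. Of the 80 genes, 79 were tested. Cox8c, the subunit isoform known from testis, was not well above background on any of the 8 arrays. The values are log2 processed signals minus the log2 of the array's 75th percentile, so that 0 is the 75th percentile of all probes, and a difference of 1 is a doubling. With limma, 0 of 34098 tested probes (0%) had a Benjamini-Hochberg adjusted p under 0.05, and the smallest adjusted p was 0.99956 over all genes as well as over the respiratory chain genes. At an unadjusted p under 0.05 there were 0 of the 79 genes, against 453 of 23464 tested genes (1.93%). In 0 of the 79 did all MS values lie above or all below all control values, whereas 0.805% of all tested genes were wholly higher and 0.524% wholly lower. Of the 79, 61 lay in the brightest decile of the tested genes by mean signal. In that decile only 2 of 2347 genes had an unadjusted p under 0.05, while 30 were wholly higher and 1 wholly lower.

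The intervals around these small differences were narrow. The log2 fold changes of the 79 genes ran from -0.23 (Cox6b2) to 0.20 (Ndufa8), with a median standard error of 0.081. Both extremes shrank without control 8.4, to -0.086 for Cox6b2 and 0.099 for Ndufa8. For 69 of the 79 (87.3%) the 95% confidence interval, which treats animals as independent, excluded a change of 1.25-fold or more in either direction. This held for 44.0% of all tested genes and for 74.4% of the brightest decile of them. The remaining 10 were Ndufa8, Ndufa11, Ndufa10, Cox7c, Cox8b, Cox7b2, Cox6b2, Atp5b, Atp5a1 and Atp5s. The SD between animals within groups had a median of 0.087 over the 79 genes and of 0.16 over all tested genes. Uqcrc2, a core protein of complex III, was spotted 10 times per array. Single spots of Uqcrc2 on an array had a median SD of 0.044, and the averages over 10 spots had an SD of 0.057 between animals. Over all 304 probes with 10 or more spots, these SDs had medians of 0.065 and 0.13.

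**Figure D2:**
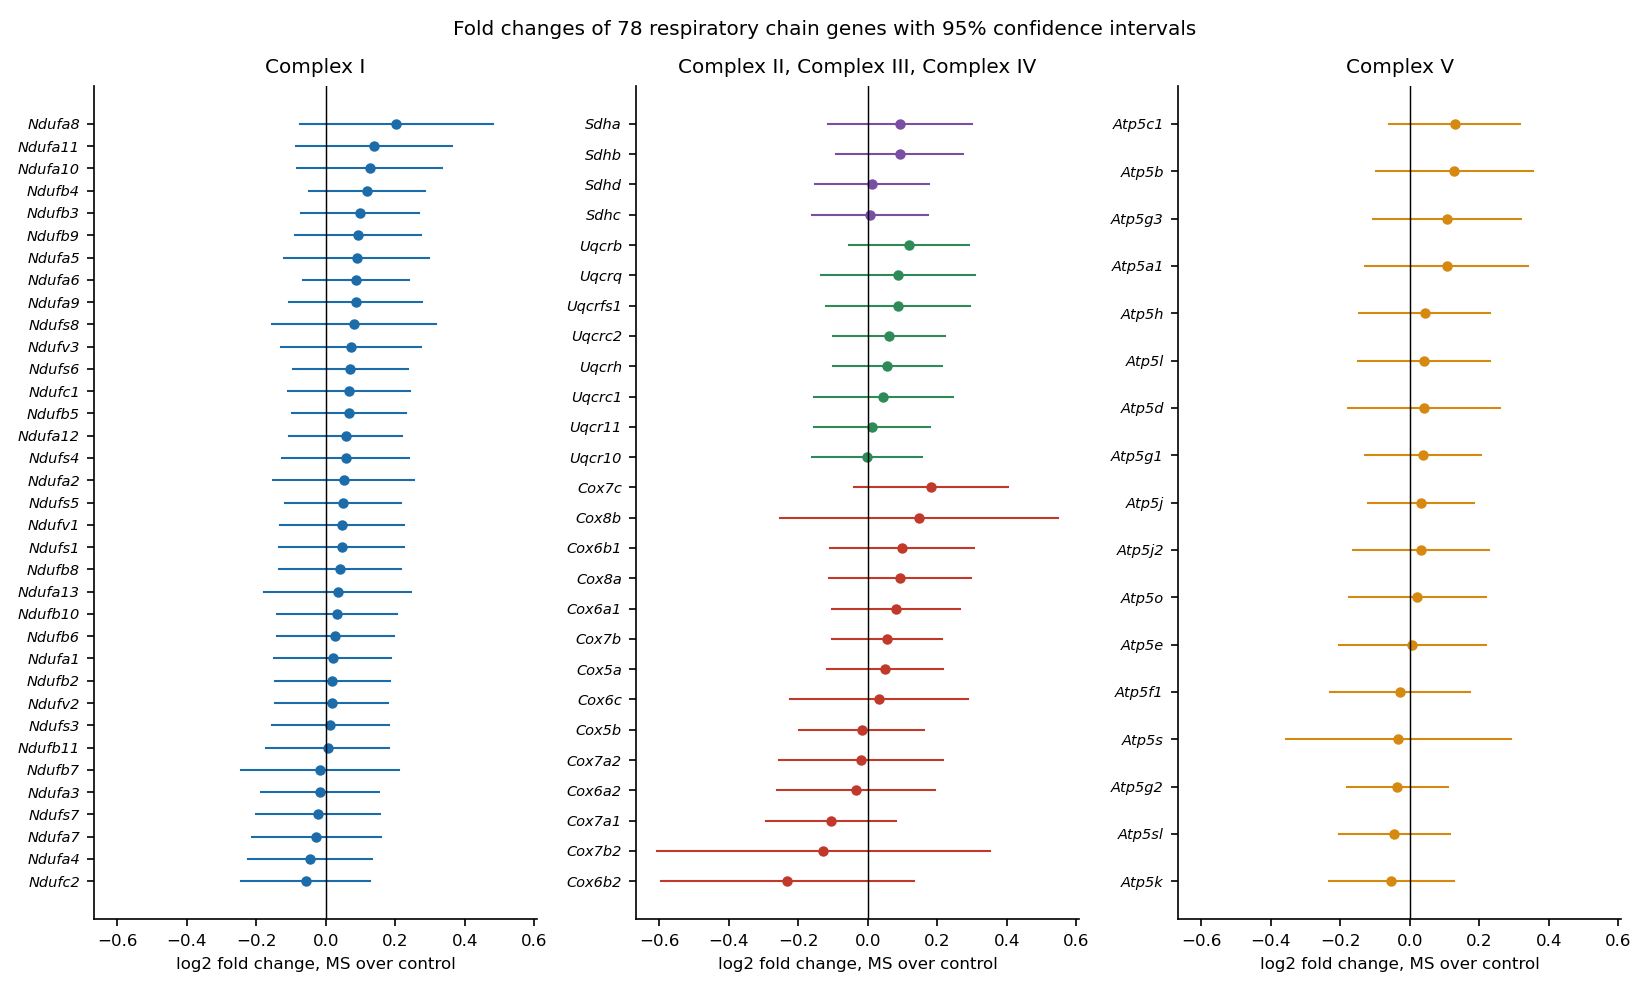
Log2 fold change, MS over control (horizontal axis), of 78 respiratory chain genes, with 95% confidence intervals from limma (n = 4 per group), by complex and ordered by size. All intervals include 0, and the estimates run from -0.23 to 0.20.

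More of these genes had a positive than a negative difference, and so did other genes of similar brightness. Of the 79, 60 (75.9%) were above 0 and 19 below, with a median log2 fold change of 0.043. Of all tested genes 54.5% were above 0, with a median of 0.012. However, 61 of the 79 probes fell in the brightest decile of the tested genes and 12 in the decile just below. In that brightest decile 77.5% of 2347 genes were above 0, with a median of 0.046. By decile of brightness, the median of all genes went from -0.025 in the dimmest to 0.046 in the brightest.

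The size of this excess differed between scalings and without 1 control array. It was kept with the median of detected probes as scale (60 above 0, 19 below, median 0.044) and with normexp background correction and the 75th percentile (55 above 0, 24 below, median 0.038). After quantile normalisation, which gives each array the same distribution of values, 35 of the 79 genes were above 0 and 44 below, with a median of -0.008. In the authors' normalised table, 41 were above 0 and 38 below, with a median of 0.0013. In both of these, 0 of the 79 had an unadjusted p under 0.05. Without control 8.4 the median fell to 0.020 with 49 genes above 0, and that of the brightest decile fell from 0.046 to 0.0051. Over the reported scaling and 5 others, 33 genes were above 0 every time, 19 were below 0 every time and 27 changed sign.

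**Figure D3:**
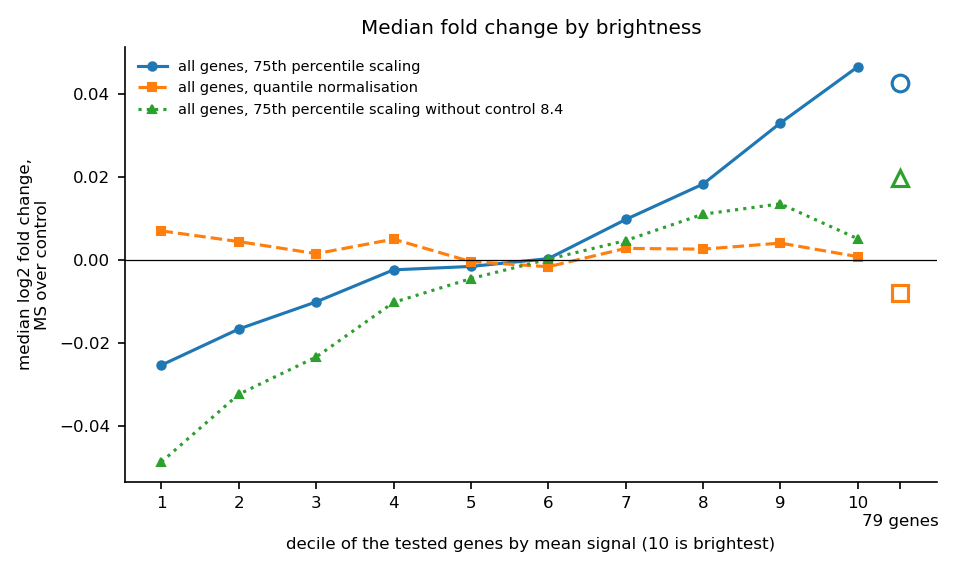
Median log2 fold change, MS over control (vertical axis), in each decile of 23464 tested genes by mean signal (horizontal axis), under 75th percentile scaling, quantile normalisation, and 75th percentile scaling without control 8.4. Open symbols at the right give the median of the 79 respiratory chain genes under the same settings, 0.043, -0.008 and 0.020.

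The mean deviation of the 79 genes from the mean of the 8 animals was also small in each animal. It was -0.026 in control 6.2, -0.0039 in control 8.2, -0.072 in control 8.4 and 0.025 in control 8.5. In the MS mice it was -0.015 in MS 5.3, 0.067 in MS 7.1, 0.011 in MS 7.2 and 0.015 in MS 7.6. Control 8.4 was thus lowest and MS 7.1 highest, and the groups overlapped. Those 2 arrays also had the highest and the lowest 75th percentile of signal, at 892 and 588. After quantile normalisation control 8.4 moved to 0.049, level with MS 7.1 at 0.049, and the lowest was MS 5.3 at -0.046.

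Control 8.4 also stood apart in markers of other tissue and cell types. All 6 markers of cortical excitatory neurons were well above background on all 8 arrays, as were all 9 of striatal projection neurons. The mean deviation of the excitatory markers was -0.57 in control 8.4 and from -0.048 to 0.24 in the other 7 animals. That of the striatal markers was 1.37 in control 8.4 and from -0.33 to -0.067 in the others. The 6 tested markers of the olfactory bulb deviated by 2.66 (control 8.4), 1.39 (MS 7.6) and 0.77 (control 8.5), and in the remaining animals they lay between -1.16 and -0.68. Astrocyte markers deviated by 0.33 in control 8.4 and by -0.21 to 0.15 in the others, and oligodendrocyte markers by 0.36 against -0.23 to 0.023. These are list means, and some single markers went the other way in control 8.4. Mbp, of the oligodendrocyte list, was lowest there, at 2.99 against 3.42 to 3.88 in the others. Aldh1l1, of the astrocyte list, lay at 3.85, below the other controls (3.91 to 3.98). Tbr1, of the excitatory list, lay at 4.32, above the other controls (4.02 to 4.24). The part of tissue composition in the respiratory chain values was not tested. In this bulk tissue, fewer cells of a type and less RNA per cell cannot be told apart.

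**Figure D4:**
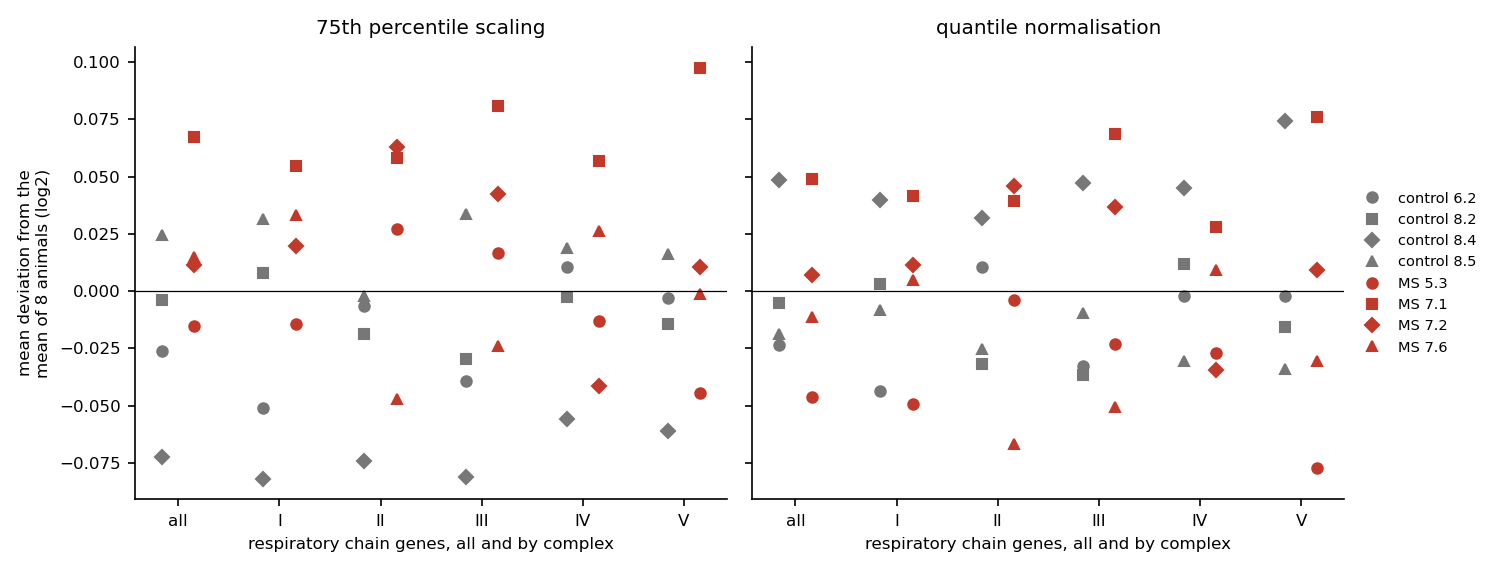
Mean deviation of the respiratory chain genes from the mean of 8 animals (vertical axis, log2), for all 79 and by complex, with 1 point per animal. Under 75th percentile scaling control 8.4 is lowest (-0.072 over all genes), and under quantile normalisation it lies at 0.049 beside MS 7.1.

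Complex I, which oxidises NADH, had 29 of 36 genes above 0, with a median log2 fold change of 0.049. Its 3 highest were Ndufa8 (0.20 ± 0.12, SE), Ndufa11 (0.14 ± 0.099) and Ndufa10 (0.13 ± 0.092), all accessory subunits. Ndufa8 measured 3.14, 2.98, 2.61 and 2.97 in control 6.2, 8.2, 8.4 and 8.5. It measured 3.19, 3.17, 3.20 and 2.95 in MS 5.3, 7.1, 7.2 and 7.6. The lowest control value came from control 8.4, the MS 7.6 value lay below 3 of the 4 controls, and the groups overlapped (limma, unadjusted p = 0.13, n = 4).

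Among the lowest in complex I were the accessory subunits Ndufc2 (-0.058 ± 0.082) and Ndufa4 (-0.045 ± 0.078). Ndufa4, named for complex I, is now counted with complex IV. The core subunits named, Ndufs1, which carries iron-sulfur clusters, and Ndufv1, which binds NADH, gave 0.045 ± 0.079 and 0.047 ± 0.079. Ndufs1 was 4.67, 4.85, 4.79 and 4.70 in control 6.2, 8.2, 8.4 and 8.5, and 4.72, 4.75, 4.90 and 4.81 in MS 5.3, 7.1, 7.2 and 7.6. The lowest value came from control 6.2 and the highest from MS 7.2, and the groups overlapped.

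Complex II, succinate dehydrogenase, had 4 of 4 genes above 0, with a median of 0.052. Sdha, the flavoprotein that oxidises succinate, gave 0.092 ± 0.091, and Sdhb, the iron-sulfur subunit, gave 0.091 ± 0.080. The membrane anchors Sdhc and Sdhd gave 0.0060 ± 0.073 and 0.013 ± 0.072. Sdha measured 4.26, 4.29, 4.08 and 4.17 in control 6.2, 8.2, 8.4 and 8.5, and 4.26, 4.39, 4.40 and 4.12 in MS 5.3, 7.1, 7.2 and 7.6. Only MS 7.1 and MS 7.2 lay above all controls. The difference was 0.054 without control 8.4 and 0.15 without MS 7.6. After quantile normalisation Sdhc and Sdhd were both at -0.030, whereas Sdha and Sdhb stayed above 0, at 0.049 and 0.040.

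Complex III, which moves electrons from ubiquinol to cytochrome c, had 7 of 8 genes above 0, with a median of 0.059. Uqcrb, a small ubiquinone-binding subunit, was highest at 0.12 ± 0.076. It measured 4.77, 4.76, 4.81 and 4.92 in control 6.2, 8.2, 8.4 and 8.5, and 4.87, 5.04, 4.92 and 4.90 in MS 5.3, 7.1, 7.2 and 7.6. The MS values lay above 3 of the controls but overlapped with control 8.5 (limma, unadjusted p = 0.16, n = 4). Its 3 overlapping probes, all on chromosome 13 of mm9, gave 0.12, 0.052 and 0.087.

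The other genes of complex III were closer to 0. The Rieske iron-sulfur protein Uqcrfs1 gave 0.087 ± 0.091 and the small subunit Uqcrq 0.087 ± 0.098. The core proteins Uqcrc1 and Uqcrc2 gave 0.044 ± 0.088 and 0.061 ± 0.071. Uqcrh, the hinge protein, gave 0.057 ± 0.069, and the small subunits Uqcr11 and Uqcr10 gave 0.012 ± 0.073 and -0.0018 ± 0.070. In the authors' table the median of complex III was 0.012.

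Complex IV, cytochrome c oxidase, had 8 of 14 tested genes above 0, with a median of 0.041. Cox7c, a small subunit present in all tissues, had the smallest unadjusted p of the 79 genes, at 0.097 by limma with an adjusted p of 0.99956 (0.18 ± 0.098, 1.13-fold). It was 4.34, 4.34, 4.39 and 4.44 in control 6.2, 8.2, 8.4 and 8.5, and 4.41, 4.80, 4.47 and 4.56 in MS 5.3, 7.1, 7.2 and 7.6. All MS values except MS 5.3 lay above all controls, and MS 7.1 was well above the rest. Without MS 7.1 the difference was 0.10. The probe lies at chr13:86186301-86186360 of mm9, and 2 dimmer probes of Cox7c gave 0.12 ± 0.18 and 0.054 ± 0.22. Cox5a, which was measured by a probe whose 60 bases span 549 bases of mm9 (chr9:57379593-57380141) and so cross an intron, gave 0.049 ± 0.073.

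Complex IV is the complex with the most tissue isoforms, and the 3 widest intervals of the 79 genes were those of Cox7b2, Cox8b and Cox6b2. The isoforms used in most tissues gave 0.081 ± 0.081 (Cox6a1), 0.098 ± 0.091 (Cox6b1), -0.020 ± 0.10 (Cox7a2), 0.055 ± 0.070 (Cox7b) and 0.092 ± 0.090 (Cox8a). Of the isoforms known mainly from heart and skeletal muscle, Cox6a2 gave -0.034 ± 0.10, Cox7a1 -0.11 ± 0.082 and Cox8b 0.15 ± 0.18. Of those known from testis, Cox6b2 gave -0.23 ± 0.16 and Cox7b2 -0.13 ± 0.21. Cox6a2, Cox7a1, Cox8b, Cox6b2 and Cox7b2 were all well above background on all 8 arrays. However, Cox8b and Cox7b2 were dim, at mean levels of -3.20 and -3.09, and Cox6b2 lay at -0.65. Of 6 skeletal muscle markers, Ckm and Mylpf were well above background on no array, and Acta1, Myh1 and Myh4 on all 8.

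Cox6b2, the lowest of all 79 genes, measured -0.65, -0.65, -0.10 and -0.75 in control 6.2, 8.2, 8.4 and 8.5, and -0.82, -0.73, -0.998 and -0.52 in MS 5.3, 7.1, 7.2 and 7.6. Control 8.4 was far above the other controls, and the remaining 3 controls lay within the range of the MS mice. Cox7a1 was likewise highest in control 8.4, at 0.62 against 0.43 to 0.45 in the other controls.

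Complex V had 12 of 17 genes above 0, with a median of 0.033. Without Atp5s and Atp5sl, 12 of 15 were above 0, with a median of 0.038. The catalytic head was represented by Atp5a1 (alpha, 0.11 ± 0.10), Atp5b (beta, 0.13 ± 0.099) and Atp5c1 (gamma, the central shaft, 0.13 ± 0.083). Atp5c1 measured 5.12, 5.22, 5.16 and 5.21 in control 6.2, 8.2, 8.4 and 8.5, and 5.16, 5.46, 5.33 and 5.29 in MS 5.3, 7.1, 7.2 and 7.6. Atp5b was 7.01, 6.90, 6.74 and 7.01 in the same controls, and 6.93, 7.24, 7.03 and 6.97 in the same MS mice. For both genes MS 7.1 was the highest animal and MS 5.3 lay within the control range (limma, unadjusted p = 0.16 and 0.23, n = 4). Without MS 7.1 the differences were 0.029 for Atp5a1, 0.063 for Atp5b and 0.080 for Atp5c1.

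Subunit c, which forms the rotating ring in the membrane, is encoded by Atp5g1, Atp5g2 and Atp5g3. They gave 0.038 ± 0.073, -0.035 ± 0.064 and 0.11 ± 0.094. A second Atp5g2 probe, on the adjacent bases, gave 0.079 ± 0.076. The lowest in complex V were Atp5k (-0.053 ± 0.079), the membrane subunit e, Atp5sl (-0.045 ± 0.070) and Atp5g2. Atp5sl and Atp5s, named Dmac2 and Dmac2l in RefSeq, are not subunits of the enzyme, and Atp5f1, the stalk subunit b, is named Atp5pb. Under quantile normalisation Atp5k was at -0.099, and the median of complex V was -0.016.

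**Figure D5:**
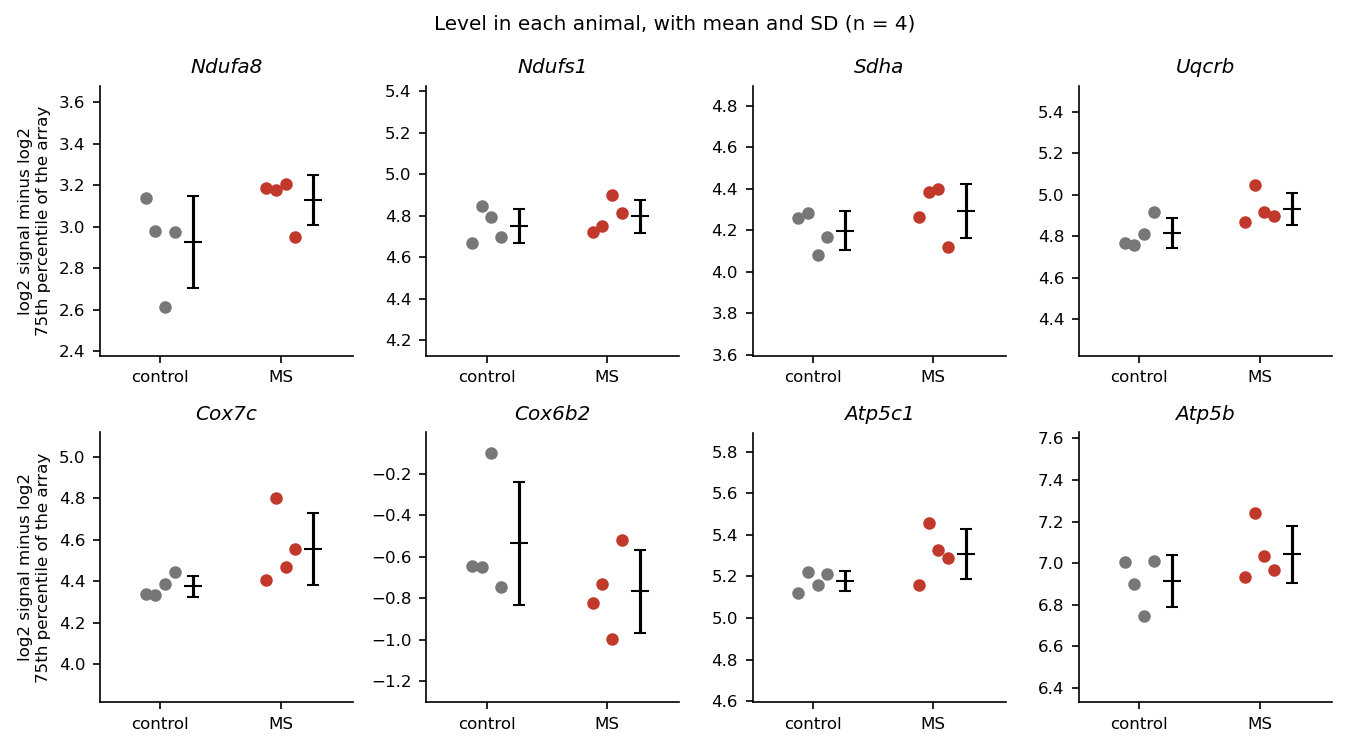
Level in each animal (vertical axis, log2 signal minus the log2 75th percentile of the array) of 8 respiratory chain genes in control and MS mPFC, with mean and SD (n = 4 per group), on axes of equal span. The groups overlap for all 8 genes, and control 8.4 is lowest for Ndufa8 and highest for Cox6b2.

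Several genes had more than 1 probe or a probe placed on another chromosome. Of the 28 genes with more than 1 tested probe, 7 had probes of both signs, among them Ndufa3, Ndufv3, Sdhc, Uqcr10, Atp5g2 and Atp5l. The brightest Cox5b probe is placed by the array annotation at chr15:100805467-100805526 of mm9, while the gene lies on chromosome 1, and 2 Atp5k probes are placed on chromosome Y. A copy of these genes elsewhere could share their signal, so their values are uncertain. The Cox5b probe on chromosome 1 gave -0.015 ± 0.066, against -0.018 ± 0.079 for the brightest. The Atp5k probe used lies on chromosome 5, and those on chromosome Y gave -0.044 and -0.034.

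The 13 subunits encoded by mitochondrial DNA were all tested, and 0 had an unadjusted p under 0.05. Of these, 10 were above 0, with a median of 0.056. The highest were ND6 (0.18 ± 0.19) and COX1, the catalytic core of complex IV (0.12 ± 0.094), and the lowest were ND5 (-0.066 ± 0.10) and ND4L (-0.054 ± 0.12). COX1 measured 8.96, 8.86, 8.67 and 9.01 in control 6.2, 8.2, 8.4 and 8.5, and 8.97, 9.12, 8.94 and 8.97 in MS 5.3, 7.1, 7.2 and 7.6. As with the nuclear subunits, control 8.4 was lowest and MS 7.1 highest. Without control 8.4 the median of the 13 was 0.018. After quantile normalisation COX1 was at 0.046, and in the authors' table at -0.013. The ND3 probe is placed on chromosome 1 in mm9, so the source of its signal is uncertain.

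Related mitochondrial and metabolic lists likewise held 0 genes at an unadjusted p under 0.05. Of 9 tested subunits and electron carriers that the name rule leaves out, 6 were above 0, from Cox4i1 (0.087 ± 0.086) and Cox7a2l to Cycs, cytochrome c (-0.016 ± 0.081), and Ndufa4l2. Without control 8.4 their median went from 0.049 to 0.0050. Of 29 assembly factors, 22 were above 0, with a median of 0.057, which was 0.018 without control 8.4. The extremes were the haem A synthesis enzymes Cox10 (0.30 ± 0.15) and Cox15 (-0.14 ± 0.084), with the copper chaperone Cox17 at 0.27 ± 0.19 and Ndufaf4 at -0.081 ± 0.11. Cox17 was dim (mean level -5.11) and well above background on 4 MS arrays but only 3 control arrays. It therefore passed the filter only through the MS group, where it was higher. Cox10 was also dim, at a mean level of -3.19. Of 16 enzymes of the tricarboxylic acid cycle, 14 were above 0 (median 0.039), from Idh3b (0.19 ± 0.10) and Suclg1 (0.11 ± 0.072) to Ogdh (-0.023 ± 0.073) and Suclg2 (-0.043 ± 0.15). Without control 8.4 still 14 of the 16 were above 0, and the median rose to 0.055. The scaling also mattered for this list. Its mean deviation was 0.024 in MS and -0.024 in control mice, but 0.0071 and -0.0071 after quantile normalisation. For the assembly factors these means were 0.031 and -0.031, and 0.026 and -0.026 after quantile normalisation.

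Of 18 tested genes of mitochondrial biogenesis, 6 were above 0, with a median of -0.047. Without control 8.4 it was still 6 of 18, but the median was -0.014, and the difference from the other lists was not tested. Its lowest were Polg2, a subunit of the mitochondrial DNA polymerase (-0.14 ± 0.12), and Nrf1, the factor whose motif is shown above (-0.13 ± 0.10), and its highest were Esrrb (0.20 ± 0.16) and Tfb2m (0.11 ± 0.070). The mean deviation of this list was 0.090 in control 8.4 and from -0.028 to 0.00995 in the other 7 animals. Nrf1 measured 0.39, 0.48, 0.62 and 0.50 in control 6.2, 8.2, 8.4 and 8.5, and 0.47, 0.17, 0.29 and 0.55 in MS 5.3, 7.1, 7.2 and 7.6, so the groups overlapped.

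Among the remaining lists, 13 of 17 glycolysis genes were above 0 (median 0.049), between Aldoa (0.12 ± 0.11) and Hk2 (-0.18 ± 0.13), with Ldha at 0.095 and Eno2 at -0.047. Without control 8.4 only 7 of the 17 were above 0, with a median of -0.015. Of 10 carriers, channels and uncoupling proteins, 7 were above 0 (median 0.037), led by Slc25a14 and the outer membrane channel Vdac1 (0.11 ± 0.076), with Ucp3 (-0.14 ± 0.12) and Ucp2 (-0.19 ± 0.14) lowest. Without control 8.4 still 7 of these 10 were above 0, with a median of 0.039. Their mean deviation was 0.0047 in MS and -0.0047 in control mice, but -0.012 and 0.012 after quantile normalisation. Of 10 antioxidant enzymes, 4 were above 0 (median -0.010, and -0.020 without control 8.4), from Gpx4 (0.15 ± 0.087) and Txnrd2 to Prdx3 and catalase (Cat, -0.18 ± 0.16). The numbers of markers above 0 were 6 of 6 for cortical excitatory neurons, 0 of 9 for striatal projection neurons and 0 of 6 for the olfactory bulb. Without control 8.4 these were 4 of 6, 4 of 9 and 4 of 6. They were 3 of 7 for neurons in general, 2 of 4 for parvalbumin interneurons, 1 of 5 for astrocytes, 1 of 5 for oligodendrocytes, 5 of 5 for microglia and 4 of 4 for endothelium. They were 3 of 4 for choroid plexus, 0 of 4 for red blood cells, 2 of 3 for skeletal muscle and 0 of 1 for brown fat. Without control 8.4 the count went to 3 of 5 for astrocytes, 4 of 5 for oligodendrocytes, 3 of 5 for microglia, 3 of 4 for endothelium, 3 of 4 for parvalbumin interneurons and 0 of 3 for skeletal muscle.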

How the data were processed

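RNA of the mPFC of 4 control and 4 MS mice was measured on 1 array each, without pooling. Agilent Feature Extraction 10.10.1.1 had given the deposited intensity of each spot from Cy3-labelled cRNA made from 200 ng RNA, with the background subtracted and spatial trends removed but no scaling between arrays. The series table holds log2 values normalised by the authors. Its columns had medians of 8.532 or 8.533 and matched the log2 median signal of their own arrays (r of at least 0.9999). The sources used here do not say how its 34137 probes were selected. Per the file headers, probe positions are on mm9.

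Control spots (3671 of 62976) and outlier spots were left out, spots of a probe were averaged, and the log2 75th percentile of each array (588 to 892) was subtracted. Between 61.6% and 68.9% of probes were well above background, and all 34098 probes that were so on all 4 arrays of a group were tested with limma 3.58.1 in R 4.3.3 (lmFit and eBayes, two-sided, no covariate, Benjamini-Hochberg over all probes). The number of arrays limits the precision. All arrays were on 1 slide with 1 scan, and each slide row held arrays of both groups. Errors after ± are standard errors of that fit (n = 4 per group).

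All 80 genes were matched to RefSeq by accession. Genes were named if past the threshold, not overlapping between groups, in complexes II or III, among the 3 highest or lowest of complexes I, IV and V, or in a fixed panel of core subunits and isoforms, which gave 39 besides 1 that is not reported here. The 2 highest and lowest genes of each pathway list were also named. Members and lists were chosen with earlier results of these data known. Alternatives were other scalings (with normexp, offset 50), the authors' table, other filters, slide row or label number as a block, probe averages and leaving out arrays. Nothing says that animals sharing a label number came from separate litters. The reported p values, standard errors and intervals do not take this into account.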

Additional observations from a re-analysis of the deposited data

Results flagged for a closer look

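Within groups of 4, 7 of 90 sets of values checked held 1 animal far from the other 3 by Dixon's criterion. For independent sets not chosen from the data, chance alone gives about 1 in 20. That rate is only a rough reference here. Some of these genes were named for extreme fold changes in these data, and the sets share the same animals. In control 8.4, Sdhb was low at 5.55 (others 5.70 to 5.71), while Cox6b2 was high at -0.10 (others -0.75 to -0.65) and Cox7a1 was high at 0.62 (others 0.43 to 0.45). In MS 7.6, Ndufa8 was low at 2.95 (others 3.17 to 3.20) and Uqcrc2 was low at 5.04 (others 5.19 to 5.21). Ndufa11 was low in MS 5.3 at 3.05 (others 3.30 to 3.34), and Atp5g1 was high in control 8.5 at 6.28 (others 6.12 to 6.15). Thus 5 of the 7 came from control 8.4 and MS 7.6, the 2 animals with the highest olfactory bulb marker values. The part of tissue composition in these values was not tested.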

How the results depend on the processing

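The number of probes past the threshold was 0 under all settings run. The number at an unadjusted p under 0.05 was 815 of 34098, and from 427 to 3837 under the alternatives. The highest, 3837, came with the label number as a random block (estimated correlation -0.22), where Cox7c (p = 0.026), Ndufa8 (p = 0.040) and Ndufb4 (p = 0.045) were the only respiratory chain genes under 0.05 in limma, all with adjusted p of 0.42 to 0.44. Standard errors were smaller in that fit, at 0.073 against 0.098 for Cox7c and 0.092 against 0.12 for Ndufa8. With a negative correlation it makes no allowance for likeness between animals that share a label number. No paired analysis was possible because the groups share no label number.

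Under quantile normalisation the median log2 fold change was -0.00797 over all respiratory chain genes, -0.0015 in complex I, 0.0052 in complex II, 0.016 in complex III, -0.0046 in complex IV and -0.016 in complex V. With normexp and quantile normalisation it was 0.0012 over all, 0.0017 in complex I, 0.027 in complex II, 0.018 in complex III, 0.0015 in complex IV and -0.020 in complex V. In the authors' table it was 0.0013 over all, 0.0037 in complex I, 0.017 in complex II, 0.012 in complex III, 0.0041 in complex IV and -0.017 in complex V. When 1 array at a time was left out, the median ran from 0.020 (without control 8.4) to 0.068 over all, 0.030 to 0.071 in complex I, 0.037 to 0.074 in complex II, 0.025 to 0.092 in complex III, -0.0023 to 0.059 in complex IV (below 0 only without control 8.4) and 0.011 to 0.068 in complex V. The other filters, slide row, scale and probe choices moved the medians by less than the spread between animals. The cause of these shifts was not tested.

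Of the 39 named genes, these changed sign. Quantile normalisation gave -0.012 for Atp5g1, -0.0011 for Cox5a, -0.0049 for Ndufs1, -0.030 for Sdhc, -0.030 for Sdhd and -0.030 for Uqcr11. Normexp with quantile normalisation gave -0.030 for Atp5g1, -0.0038 for Cox5a, -0.050 for Sdhc, -0.0011 for Sdhd and -0.050 for Uqcr11, and normexp with the 75th percentile -0.026 for Sdhc and -0.015 for Uqcr11. The authors' table gave -0.039 for Atp5g1, -0.0043 for Ndufs1, -0.066 for Sdhc, -0.0068 for Sdhd, -0.050 for Uqcr11 and -0.0050 for Uqcrh. The random block gave 0.010 for Cox7a2 and -0.0054 for Sdhc. The mean of all tested probes gave 0.022 for Atp5g2, -0.046 for Sdhc and 0.033 for Uqcr10. Leaving out control 8.4 and MS 7.6 together, a setting chosen after seeing the data like the probe on the gene's own chromosome, gave 0.011 for Ndufa4, 0.024 for Ndufc2, -0.014 for Sdhc, 0.0084 for Uqcr10 and -0.013 for Uqcr11. When 1 array was left out, the values ran from -0.092 to 0.021 for Cox6a2, -0.086 to 0.051 for Cox7a2, -0.29 to 0.0042 for Cox7b2, -0.074 to 0.0062 for Ndufa4, -0.0059 to 0.077 for Ndufv1, -0.014 to 0.040 for Sdhc, -0.012 to 0.039 for Sdhd, -0.034 to 0.023 for Uqcr10 and -0.020 to 0.050 for Uqcr11.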
